A study of Homo sapiens with 12 samples.

Results

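SKOV3 cells treated with paeonol (PAE) were compared with untreated SKOV3 cells. The comparison used the 3 libraries labelled SKOV3 with the agent Paeonol and the 3 labelled SKOV3 with no agent, 6 of the 12 RNA sequencing libraries of the series, and the genes that the files give a name, 46350 of 47219 loci. SKOV3 is an established cell line of epithelial ovarian cancer, and the labels call it cisplatin-sensitive. The other 6 libraries come from SKOV3/DDP, a cisplatin-resistant counterpart, untreated or treated with PAE (3 libraries each), and they entered the fits to share 1 estimate of the spread. The labels give no PAE dose, treatment time, vehicle or batch, and do not say whether the 3 libraries of a group came from separate cultures, so the p-values measure the spread between these libraries, which may be technical.

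PAE is a phenol found in the root bark of peony, and the study worked with it as an inhibitor of the kinase NEK6. In the pathway studied, FOXO3 is a transcription factor, FBXW7 is the substrate-binding part of a ubiquitin ligase that marks c-MYC for degradation, and c-MYC is a transcription factor that drives many biosynthetic genes. De novo purine synthesis builds inosine monophosphate in a chain of enzyme steps from phosphoribosyl pyrophosphate, and IMP is then converted to AMP and GMP. The comparison asks which messenger RNAs differed after PAE in the cisplatin-sensitive line.

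Total counts were between 14610008 and 18263479 per library. Between 17951 and 18240 named genes had a count in an untreated library, against 21597 to 23194 in a PAE library. Keratins, which mark epithelial cells, were abundant, with KRT7 at 2320 to 2442 CPM (counts scaled to a common library total) in untreated cells and 1483 to 2660 with PAE, and ERBB2, amplified in this line, was at 183 to 220 and at 54.6 to 105 CPM. EPCAM was low in both groups (0.274 to 1.31 and 6.30 to 10.3 CPM), and among the ovarian markers PAX8, MUC16 and MSLN were detected while SOX17 had no count and WT1 had 2 counts in all. Of the markers of other cell types, PTPRC, CD3E, CDH5 and LUM had no count in untreated SKOV3 and at most 7 counts each in the PAE libraries, and VWF was at most 0.274 CPM. CD68 was between 20.1 and 39.9 CPM in all 6 libraries, and PECAM1, COL1A1, COL3A1 and DCN were at most 22.5 CPM. PECAM1 (2.05 to 3.23 and 6.53 to 12.7 CPM), COL3A1 and DCN were higher in every PAE library without allowance for GC content. With the GC and length trend described below removed, COL3A1 passed (log2 fold change 2.85, adjusted p = 0.00239 in edgeR). PECAM1 (0.21, adjusted p = 0.733) and DCN (0.88, adjusted p = 0.329) did not pass in that fit. COL1A1 (1.02) and CD68 (0.63), whose CPM ranges overlapped, passed there as well. The part of such transcripts in the results was not tested.

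The untreated SKOV3 libraries stood apart from the other 9. GC content, the share of G and C among the bases of a gene's merged exons (GENCODE 29), moved with their counts. In the decile of genes with the lowest GC content (29.8% to 39.1%), the mean trend of the 3 untreated SKOV3 libraries was −2.07, −2.54 and −2.25 on the log2 scale against the mean of the 12 libraries, and in the decile with the highest (61.6% to 87.9%) it was 1.92, 1.94 and 1.89. The PAE libraries ran the other way, at 0.94, 0.60 and 0.96 in the lowest decile and −0.88, −0.39 and −1.08 in the highest. The trends of untreated SKOV3 and of PAE libraries therefore did not overlap at either end. Each trend is taken against the mean of the 12 libraries, so the other 9 together must run against the 3 untreated ones. The SKOV3/DDP libraries ran downward as well. Over 9886 protein-coding genes, a smooth curve on GC content took 74.7% of the variance of the log2 fold change with PAE in SKOV3, against 5.15% in SKOV3/DDP. All 3 untreated SKOV3 libraries ran upward with GC content, and every PAE library of SKOV3 ran downward. A cause in library preparation and an effect of PAE on GC-poor transcripts thus cannot be told apart. The comparison is therefore made without allowance for GC content and after a smooth curve on GC content and exon length (the trend) was removed from each library, and the counts of each gene list are given in both fits.

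**Figure D1:**
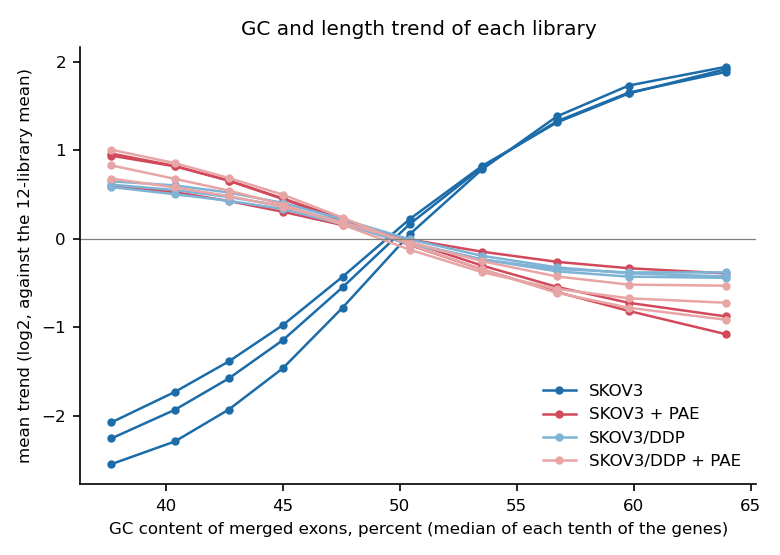
The plot gives the mean trend on GC content and length removed from each of the 12 libraries (y axis, log2 against the mean of all libraries) over the GC deciles of the genes by GC content (x axis, percent). The 3 untreated SKOV3 lines run from between −2.07 and −2.54 up to between 1.89 and 1.94, and the 9 other lines run downward.

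Removal of the trend brought the levels of the 2 SKOV3 groups closer. Spearman's correlation of log2 CPM between an untreated and a PAE library of SKOV3 was 0.314 to 0.561 over 10588 genes without allowance and 0.719 to 0.838 over 10481 genes with the trend removed (9 pairs each). Between SKOV3 PAE and untreated SKOV3/DDP libraries it was 0.695 to 0.732 and 0.694 to 0.727. These values describe the libraries over genes that share them. The trend was fitted to these same libraries, so its removal was bound to bring the 2 SKOV3 groups closer, and the rise is no separate result.

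Members of a single protein complex show the size of the trend, since their genes differ in base composition. In the proteasome, which degrades ubiquitin-marked proteins, PSMD14 (the deubiquitinase of its lid, GC content 36.2%) was measured at 16.9, 12.9 and 14.3 CPM in untreated cells and 105, 84.7 and 127 CPM with PAE, a log2 fold change of 2.84 without allowance (CPM here and below are scaled by TMM, the trimmed mean of M values). PSMC3 (an ATPase of its base, 56.4%) was measured at 331, 492 and 362 CPM and 98.2, 92.8 and 109.7 CPM, a log2 fold change of −1.98. The groups did not overlap for either gene, and the directions were opposite. With the trend removed the log2 fold changes were −0.57 (adjusted p = 0.015 in edgeR, 0.0515 without PAE replicate 1 and 0.0509 without replicate 2) and 0.05 (adjusted p = 0.828). With a second trend described below, on coding sequence and 3′ UTR, they were 0.50 and 0.55 (adjusted p = 0.0129 and 0.0177 in edgeR). Over 31 tested proteasome genes the standard deviation of the log2 fold change went from 2.25 to 1.36 with the first trend removed, against 0.357 in SKOV3/DDP without allowance. In the CCT chaperonin, the ring that folds actin and tubulin, CCT6A (41.2%) was at 28.6, 17.9 and 22.9 CPM and 254, 185 and 228 CPM (3.27 without allowance, 0.74 with the trend removed). CCT7 (49.8%), another subunit, was at 755, 851 and 803 CPM and 213, 275 and 248 CPM (−1.71 and −1.80), so that here the opposite directions stayed after the trend was removed. Spearman's correlation of the log2 fold change with GC content went from −0.80 to −0.15 over the proteasome genes. Over the 8 chaperonin genes it went from −0.86 to −0.74, so most of it stayed.

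The middle 100 bases of the coding sequence of these 4 genes (principal GENCODE 29 transcript, build GRCh38, 5′ to 3′, G and C in capitals) are printed to show the difference in composition. They hold 42 G or C in PSMD14 (chr2:161371276-161385516, forward strand, across 1 intron), 56 in PSMC3 (chr11:47422857-47422956, reverse strand), 32 in CCT6A (chr7:56058383-56058482, forward strand) and 41 in CCT7 (chr2:73247908-73249071, forward strand, across 1 intron). The first 100 coding bases of CCT6A hold 72, more than those of the other 3 genes (52 to 56), so a single stretch does not stand for a whole gene.
PSMD14: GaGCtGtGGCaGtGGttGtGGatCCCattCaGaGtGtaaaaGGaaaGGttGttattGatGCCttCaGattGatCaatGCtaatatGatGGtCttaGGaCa
PSMC3: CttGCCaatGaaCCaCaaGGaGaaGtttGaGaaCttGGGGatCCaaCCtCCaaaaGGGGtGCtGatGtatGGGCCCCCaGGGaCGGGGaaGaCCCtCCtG
CCT6A: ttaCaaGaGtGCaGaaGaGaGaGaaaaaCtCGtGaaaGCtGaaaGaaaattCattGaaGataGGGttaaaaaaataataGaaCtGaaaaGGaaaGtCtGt
CCT7: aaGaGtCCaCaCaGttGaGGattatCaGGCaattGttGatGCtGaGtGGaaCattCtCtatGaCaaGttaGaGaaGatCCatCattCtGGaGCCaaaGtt

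Without allowance for GC content, 12895 of 17133 tested genes passed an adjusted p of 0.05 (75.3%, quasi-likelihood test of edgeR, p adjusted after Benjamini and Hochberg), 7292 higher (42.6%) and 5603 lower with PAE (32.7%). With the trend removed, 7988 of 15683 genes passed (50.9%), 4543 higher (29.0%) and 3445 lower (22.0%). In the decile of genes with the lowest GC content, 90.6% were higher and 1.21% lower without allowance, and 26.3% and 19.7% with the trend removed. In the decile with the highest, 0.319% were higher and 88.4% lower, against 20.7% and 16.9%. Of 15683 genes in both fits, 5153 passed in both with the same sign, 1248 passed in both with opposite signs, 5737 passed only without allowance and 1587 only with the trend removed. A second trend, on the GC content and length of the coding sequence and of the 3′ UTR of the principal transcript, was added after the values were seen, because merged exons misstate the composition of some messages. It left 6245 of 13308 genes (46.9%), 3230 higher (24.3%) and 3015 lower (22.7%). The counts of the gene lists below are to be read against these shares of all genes, 42.6% higher and 32.7% lower without allowance, 29.0% and 22.0% with the trend removed, and 24.3% and 22.7% with the coding and 3′ UTR trend. Directions are relative to the scaling. The share of higher among the genes called was 56.9% with the trend removed and 42.2% with the size factors of DESeq2 (3378 higher and 4622 lower), which shifted the median of the tested genes by −0.25 on the log2 scale. Without allowance it was 56.6%, and 70.3% with library size as the only scaling, which moved that median by 0.87.

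**Figure D2:**
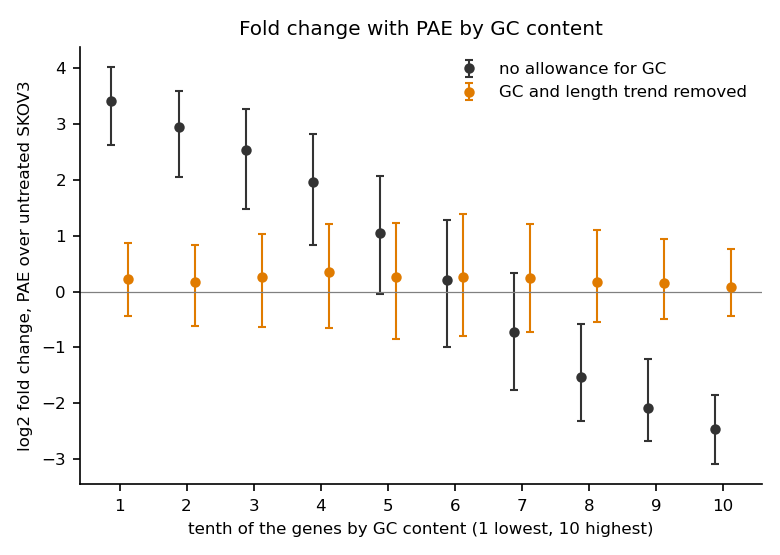
The plot gives the median log2 fold change of PAE over untreated SKOV3 (y axis; bars from the 25th to the 75th percentile) in each decile of 15683 genes by GC content (x axis). Without allowance the medians fall from 3.42 to −2.47, and with the trend removed they lie between 0.08 and 0.34.

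NEK6 was lower with PAE in both fits. NEK6 (Gene ID 10783, chromosome 9 from 124257606 to 124353307 on the forward strand, GC content 53.8%) was measured at 18.2, 18.6 and 16.8 CPM in untreated SKOV3 and 5.52, 5.23 and 3.05 CPM with PAE. All PAE libraries lay below all untreated libraries. The group means were 17.8 ± 0.943 and 4.6 ± 1.35 CPM (SD, 3 libraries a group), and the log2 fold change was −1.96 without allowance and −1.0 with the trend removed (standard error 0.22, adjusted p = 0.00167 in edgeR), −1.38 with the coding and 3′ UTR trend. FOXO3 (Gene ID 2309, chromosome 6 from 108559825 to 108684774 on the forward strand) was measured at 9.31, 3.83 and 10.8 CPM and 60.5, 44.5 and 40.2 CPM. It was higher in every PAE library, with a log2 fold change of 2.60 without allowance, 2.19 with the trend removed (standard error 0.25, adjusted p = 1.2e-05 in edgeR) and 2.26 with the coding and 3′ UTR trend, and its reads cannot be told from those of its near-identical copy FOXO3B.

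FBXW7 and MYC depended on the allowance. FBXW7 (40.6% GC) was measured at 3.1, 1.36 and 2.37 CPM and 16.3, 13.1 and 13.2 CPM, without overlap, and its log2 fold change of 2.63 became −0.29 with the trend removed (standard error 0.25, adjusted p = 0.353 in edgeR). MYC (54.3% GC) was measured at 67, 41.8 and 63.1 CPM and 109.9, 62.8 and 39.9 CPM, and the groups overlapped. Its log2 fold change was 0.31 without allowance (adjusted p = 0.421) and 1.65 with the trend removed (standard error 0.35, adjusted p = 0.00155, edgeR). It had no value for the coding and 3′ UTR trend.

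Of the 9 enzymes of de novo purine synthesis, 5 were higher and 2 lower without allowance, and 1 was higher and 2 lower with the trend removed (11.1% and 22.2%, against 29.0% and 22.0% of all genes). The median log2 fold change was 2.20 and −0.14, against 0.48 and 0.20 over all tested genes, and the second was 0.07 without untreated replicate 1. PAICS, which carries out middle steps of the pathway (Gene ID 10606, chromosome 4 from 56435752 to 56464578 on the forward strand), was measured at 18.3, 12.2 and 19.5 CPM and 268, 234 and 295 CPM. It rose in both fits, by 4.0 without allowance and 1.72 with the trend removed (standard error 0.16, adjusted p = 2.39e-06 in edgeR). IMPDH2, the first enzyme of the branch to GMP, was measured at 490.3, 639 and 567 CPM and 152, 175 and 162 CPM. It was lower in every PAE library, with log2 fold changes of −1.79 and −0.83 (standard error 0.16, adjusted p = 0.000655 in edgeR). ADSL, which acts in the chain and again in the branch to AMP, was measured at 57.2, 78.8 and 78.3 CPM and 62.1, 63.9 and 88 CPM, and the groups overlapped. It did not pass without allowance (adjusted p = 1 in edgeR), and its value with the trend removed was −2.06 (standard error 0.27, adjusted p = 2.95e-05 in edgeR).

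The other 6 enzymes did not pass with the trend removed in edgeR, and ATIC passed in DESeq2 (−0.55, adjusted p = 0.00994). PPAT, the enzyme of the committed step, was measured at 6.21, 2.98 and 2.88 CPM and 36.5, 24.3 and 39.8 CPM. Its log2 fold change of 3.06 became −0.14 (standard error 0.27, adjusted p = 0.685 in edgeR). GART, a multifunctional enzyme of the pathway, was measured at 43.5, 18 and 27.2 CPM and 132, 136 and 139.7 CPM, and 2.20 became −0.15 (standard error 0.22, adjusted p = 0.609, edgeR). The libraries of the groups did not overlap for either gene, although neither passed once the trend was removed. ADSS2, which makes adenylosuccinate, went from 2.96 to 0.30, and GMPS, the GMP synthetase, from 2.81 to 0.01. PFAS, a synthase of an early step, was measured at 77.4, 78.6 and 92.1 CPM and 21.1, 33.4 and 30.3 CPM. Its value was −1.55 without allowance, 0.19 with the trend removed and −0.83 (adjusted p = 0.00717 in edgeR) with the coding and 3′ UTR trend. ATIC, the enzyme of the last steps to IMP, was at 0.47, −0.28 and −1.32 (adjusted p = 4.51e-05, edgeR). With the coding and 3′ UTR trend, PFAS, ADSL, ATIC, IMPDH2 and GMPS were lower and PAICS higher (55.6% and 11.1%, against 22.7% and 24.3% of all genes).

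**Figure D3:**
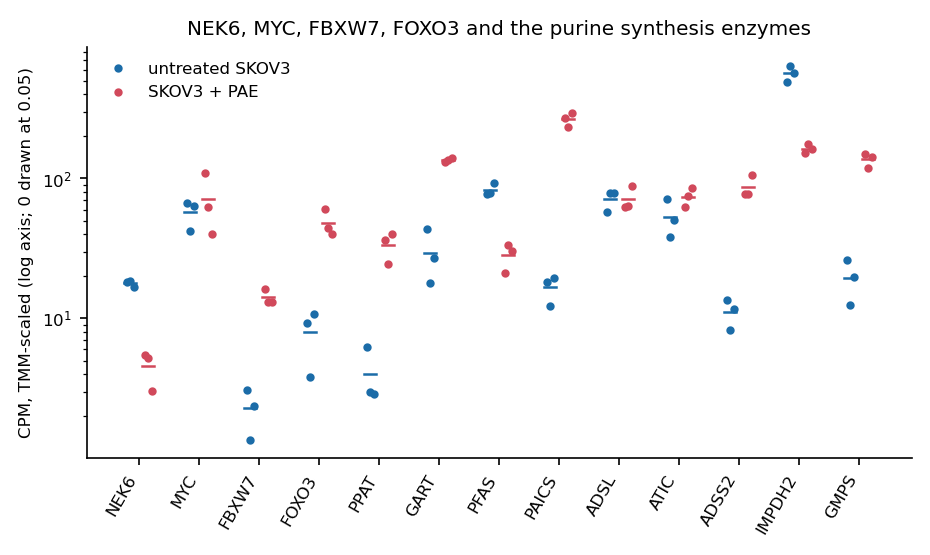
The plot gives CPM (y axis, log scale, TMM-scaled) of NEK6, MYC, FBXW7, FOXO3 and the 9 purine synthesis enzymes (x axis) in each library, as points for untreated SKOV3 (blue) and SKOV3 with PAE (red), with the group mean as a bar. The points of the groups overlap for MYC, ADSL and ATIC only, and PAICS shows the widest gap, from a mean of 16.6 to 266 CPM. These CPM carry no allowance for GC content, and without it 75.3% of all tested genes passed. FBXW7, PPAT, GART, PFAS, ADSS2 and GMPS separate here and did not pass with the trend removed. The share of all genes without overlap is not given, so the lack of overlap is no separate support.

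The genes with the largest rises that held in both fits and with each library left out included an epithelial transcription factor, a chemokine and an immediate early gene. EHF, an ETS factor of epithelial cells (Gene ID 26298, chromosome 11 from 34621093 to 34663288 on the forward strand), was measured at 0.0887, 0.0852 and 0.0848 CPM in untreated SKOV3, 1 count in each library, and 17.1, 42.3 and 12.3 CPM with PAE. The ratio of the summed counts, each divided by the TMM-scaled library totals of its group, was 282 (95% exact interval 96.3 to 1369, counting error only). CCL4L2, a chemokine copy (Gene ID 9560), had 1 count in all untreated libraries and was measured at 12.3, 13.9 and 5.16 CPM with PAE, a ratio of 362 (95% exact interval 64.7 to 14310). Reads from CCL4L2 and its near-identical copies may be split between them. CCDC150 had 2 counts in the untreated libraries together and 13, 10.4 and 19.8 CPM with PAE, a ratio of 250 (68.9 to 2066). These 3 ratios are all scaled in this way, and they carry no allowance for GC content. The log2 fold changes without allowance were 7.996 for EHF, 8.17 for CCL4L2 and 7.79 for CCDC150. With the trend removed they were 5.99, 8.89 and 5.09, smaller for EHF and CCDC150 and larger for CCL4L2. Each PAE library lay far above each untreated library for these 3 genes. Lack of overlap was part of the rule by which most genes here and below were named, so it is no separate support.

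EGR1, a zinc finger factor induced within minutes of many stimuli, was measured at 10.8, 9.54 and 11.9 CPM in untreated SKOV3 and 345, 584 and 83.3 CPM with PAE. Its log2 fold change was 4.97 without allowance and 6.47 with the trend removed (standard error 0.75, adjusted p = 1.27e-05 in edgeR). From here on, 3 values in brackets after a gene are its log2 fold changes without allowance, with the trend removed and with the coding and 3′ UTR trend removed, 2 values are those of the last 2 fits, and a single value is that with the trend removed, unless the sentence says otherwise. IGFBP5, which binds insulin-like growth factors, was measured at 3.37, 0.937 and 0.763 CPM and 17.8, 85.8 and 5.74 CPM (4.43, 4.82 and 5.66). AOX1, the aldehyde oxidase, was measured at 0.532, 0.0852 and 0.17 CPM and 17.6, 25 and 15.6 CPM (6.18, 4.57 and 3.56). The PAE libraries spread over an order of magnitude for IGFBP5 and lay close together for AOX1. ULBP3, a ligand of the NKG2D receptor of natural killer cells, was measured at 2.66, 2.3 and 3.39 CPM and 21.8, 8.99 and 11 CPM (2.32, 4.56 and 4.47). ID2, an inhibitor of basic helix-loop-helix factors, was measured at 7.01, 6.82 and 8.9 CPM and 194, 17.3 and 18.9 CPM (3.34, 4.45 and 3.45), and PAE replicate 1 lay far above the other PAE libraries. EFCAB8 (4.79) and GOLGA8B (4.46) also rose, and reads of GOLGA8B can be shared with its close copy GOLGA8A.

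Among the largest falls, several were small subunits of the mitochondrial respiratory chain. ATP5MC3 encodes a subunit of the rotor ring of ATP synthase (Gene ID 518, chromosome 2 from 175176258 to 175181710 on the reverse strand). It was measured at 624, 898 and 723 CPM in untreated SKOV3 and 102, 143 and 113 CPM with PAE, with log2 fold changes of −2.65 without allowance, −5.50 with the trend removed (standard error 0.36, adjusted p = 1.16e-07 in edgeR) and −4.09 with the coding and 3′ UTR trend. ATP5MG, another subunit of the same enzyme, was measured at 593, 1059.8 and 729 CPM and 129.5, 140.0 and 147 CPM (−2.51, −5.19 and −3.02). COX7A2, of cytochrome c oxidase, was measured at 318, 644 and 459 CPM and 53.9, 65.8 and 78.9 CPM (−2.84, −5.25 and −2.95). NDUFB2, of complex I, was measured at 529, 651 and 459.8 CPM and 43, 42.9 and 61.1 CPM (−3.48, −5.27 and −1.89). For these genes every PAE library lay below every untreated one, and DMAC1, a complex I assembly factor, was lower in all 3 fits (−3.52, −5.82 and −2.71).

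The remaining large falls were SLCO5A1, an organic anion transporter family member measured at 705, 350.5 and 376 CPM and 39.2, 80.8 and 18 CPM (−3.37, −5.25 and −5.73), FAM229B (−5.34 and −3.37), TMED3, a cargo receptor of the secretory pathway, NOTCH2NLA and NEDD8. TMED3 was measured at 804, 1032 and 819 CPM and 71.5, 87.9 and 75 CPM, and its −5.52 with the trend removed became −1.12 with the coding and 3′ UTR trend. NEDD8, the ubiquitin-like protein that activates cullin ligases, was measured at 3.55, 59.5 and 14.4 CPM and 0.465, 0.203 and 0.947 CPM (−7.77 and −3.60). Its untreated libraries differed widely, and it overlaps a read-through gene with MDP1. NOTCH2NLA (−6.0 and −3.48) has near-identical copies whose reads may be split.

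**Figure D4:**
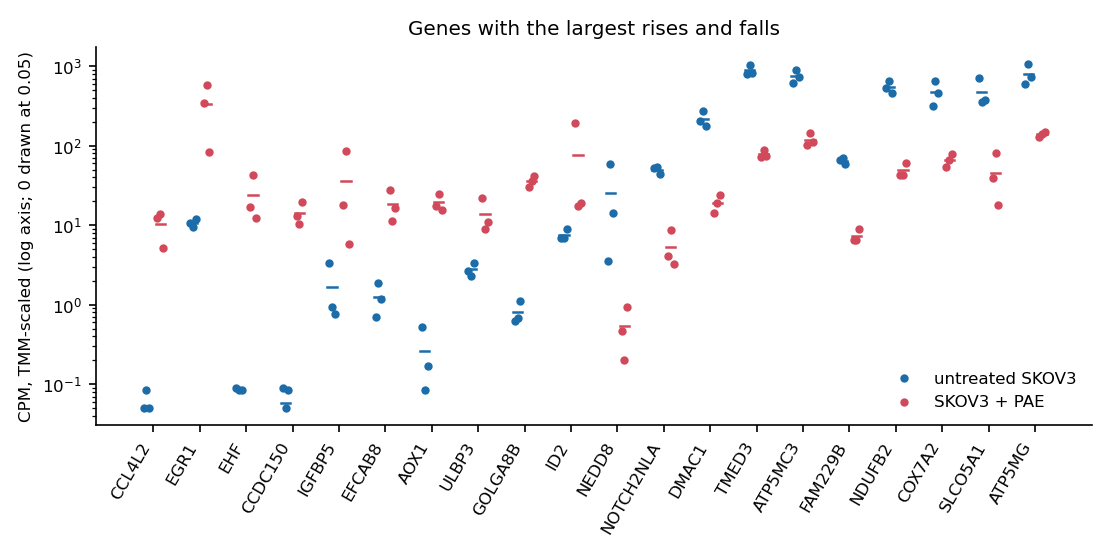
The plot gives CPM (y axis, log scale, TMM-scaled, 0 drawn at 0.05) in each library of the 10 genes with the largest rises and the 10 with the largest falls (x axis), for untreated SKOV3 (blue) and SKOV3 with PAE (red), with group means as bars. The groups do not overlap for any of the 20, as the rule for naming them required.

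Ribosomal protein genes were mostly lower with PAE. Of 79 genes of cytosolic ribosomal proteins, 60 were lower and 9 higher without allowance, and 59 were lower and 6 higher with the trend removed (74.7% lower, against 22.0% of all genes). Their median log2 fold change was −2.0 without allowance, −1.45 with the trend removed and −1.33 over the 62 genes with a coding and 3′ UTR trend, beside 0.48, 0.20 and 0.07 for all genes. RPL9, of the large subunit, was measured at 870.0, 937 and 1119 CPM in untreated SKOV3 and 203, 156 and 153 CPM with PAE (−2.52, −5.16 and −4.02). RPL37 was measured at 3166, 4248 and 3631 CPM and 560.5, 749 and 476 CPM (−2.63, −4.97 and −2.88). Both lay lower in each PAE library, as did RPL37A (−4.99 and −2.41) and RPS29 (−5.17 and −1.61 with the 2 trends). Over the 79 genes, Spearman's correlation of the log2 fold change with GC content was −0.48 without allowance and 0.50 with the trend removed, so the curve over all genes left a trend of the other sign in this list. Ribosomal protein genes have many processed pseudogenes, and their reads may be split between copies. In the PAE libraries, pseudogenes held 0.446% to 0.491% of all counts, against 1.10% to 1.26% in the untreated ones.

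The nuclear genes of the respiratory chain and ATP synthase moved likewise, with 53 of 75 lower and 11 higher without allowance and 59 lower and 3 higher with the trend removed (78.7% lower). The median was −2.05, −1.31 and −0.69 under the 3 treatments of GC content, Spearman's correlation with GC content went from −0.65 to 0.50, and with the coding and 3′ UTR trend 43 of 74 were lower and 10 higher. This list and that of the ribosomal proteins were drawn up after the values of such genes had been seen. The 13 mitochondrially encoded mRNAs, transcribed inside the organelle, held 0 higher and 3 lower genes without allowance and 0 higher and 12 lower with the trend removed, with a median of −0.51 and −1.27. MT-ND3 (ND3 in the files), a subunit of complex I, was measured at 409.6, 414 and 420.3 CPM and 72.5, 145 and 91.4 CPM. Its log2 fold change was −2.01 without allowance and −3.41 with the trend removed. MT-CO2 was measured at 2877, 2763 and 3752 CPM and 1166, 1297 and 1700.0 CPM (−1.17 without allowance and −1.43 with the trend removed), a fall that quantile normalization within GC bins turned to 0.25. MT-CYB (CYTB in the files), of complex III, was measured at 1054, 784 and 1377 CPM and 472, 737 and 592 CPM (−0.84 and −1.29 in the same order), and with that normalization it did not pass (−0.73, adjusted p = 0.146 in edgeR). Without PAE replicate 1 the number lower was 7. The share of all counts on the mitochondrial genome was 1.29% to 1.96% in untreated and 1.82% to 2.44% in PAE libraries. These shares are not scaled by TMM, and their ranges overlapped.

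Proteasome genes were more often lower than higher once a trend was removed. Of 31 tested, 14 were higher and 12 lower without allowance, and 3 were higher and 17 lower with the trend removed (54.8% lower, against 22.0% of all genes, median −0.79), with 8 higher and 15 lower under the coding and 3′ UTR trend (48.4% lower, against 22.7%). Without untreated replicate 2 or PAE replicate 2 the number higher was 1. The 4 genes that the rule took from this list were beta subunits of the core, and the 17 lower genes held alpha and regulatory subunits too. PSMB5, the chymotrypsin-like subunit, was measured at 504, 688 and 535 CPM in untreated SKOV3 and 61.8, 100.1 and 103 CPM with PAE (−2.71, −1.66 and −2.02). PSMB4 was measured at 567, 725 and 654 CPM and 136, 147 and 188 CPM (−2.05, −2.42 and −2.06). PSMB2 was measured at 292, 216 and 256 CPM and 143, 126 and 167 CPM (−0.81, −2.58 and −1.65), and PSMB7 also fell (−1.53). In the chaperonin, 6 of 8 genes were higher and 1 lower without allowance, and 4 higher and 2 lower with the trend removed (50% and 25%, against 29.0% and 22.0% of all genes). With the coding and 3′ UTR trend 3 were higher and 1 lower (37.5% and 12.5%, against 24.3% and 22.7%). CCT8 was measured at 25.5, 9.54 and 15.2 CPM and 324, 305 and 312 CPM (4.23, 2.02 and 1.66), and CCT2 at 13.5, 11.6 and 10.4 CPM and 223, 166 and 205 CPM (4.06, 1.73 and 1.51). Both were higher in every PAE library, and CCT4 (0.91) turned to −0.22 with the coding and 3′ UTR trend, where it did not pass.

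Glycolysis genes were more often lower than higher in each fit. Of 18, 14 were lower and 2 higher without allowance, 8 and 3 with the trend removed (44.4% lower, against 22.0% of all genes), and 9 and 3 with the coding and 3′ UTR trend (50% lower, against 22.7%). With quantile normalization within GC bins, PGK1 (−0.24) and PKM (−0.42) did not pass. PGK1, which makes ATP in the pathway, was measured at 1377, 2056 and 1858 CPM and 965, 659.9 and 742 CPM. Its log2 fold change was −1.16, −3.40 and −3.21 under the 3 treatments. PKM, the pyruvate kinase, was measured at 9679.7, 10421 and 10021 CPM and 1999.7, 2200.2 and 2207 CPM (−2.23, −1.40 and −0.68). LDHB and HK2, a lactate dehydrogenase subunit and a hexokinase, went the other way, with 18.5, 30 and 24 CPM and 392, 407 and 436 CPM for LDHB (4.09, 2.21 and 2.03) and 62.3, 28 and 35.7 CPM and 239, 184 and 116 CPM for HK2 (2.10, 2.44 and 1.19). Of 25 cholesterol synthesis genes, 13 were lower and 8 higher without allowance, and 11 were lower and 4 higher with the trend removed (44% lower, against 22.0% of all genes, median −0.39). Without PAE replicate 3 the number lower was 7. LSS, the lanosterol synthase, was measured at 63.1, 65.2 and 71 CPM and 5.81, 10.6 and 5.84 CPM (−1.82 with the trend removed), and MVK, the mevalonate kinase, at 89, 102 and 95.9 CPM and 7.96, 10.8 and 12.6 CPM (−1.36). HMGCS1, an early enzyme of the same pathway, was measured at 8.6, 4.6 and 5.85 CPM and 251, 92.9 and 102 CPM (1.93), and IDI1 also rose (1.52) but not with the coding and 3′ UTR trend (0.66, adjusted p = 0.077 in edgeR).

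Immediate early genes, transcribed within minutes of a stimulus, were more often higher. Of 20, 13 were higher and 1 lower with the trend removed (65% higher, against 29.0% of all genes), with a median of 1.41, and with the coding and 3′ UTR trend 13 were higher and 0 lower. Without allowance 10 were higher and 3 lower. The PAE libraries differed among themselves for these genes. FOS was measured at 23.2, 20.8 and 27.6 CPM in untreated SKOV3 and 383, 343 and 25.2 CPM with PAE, FOSB at 12.1, 11.4 and 14.9 CPM and 312, 110.0 and 3.58 CPM, and JUN at 85.4, 97.7 and 104 CPM and 448, 329 and 69 CPM. PAE replicates 1 and 2 lay above the untreated range for all 3, and replicate 3 lay within or below it. These 3 genes were chosen after their values were seen, and of the list EGR1 alone met the rule for named genes.

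Heat shock genes, the targets of HSF1 that refold damaged proteins, held 12 higher and 1 lower of 21 without allowance and 13 higher and 0 lower with the trend removed (61.9% higher, against 29.0% of all genes, median 1.54). With the coding and 3′ UTR trend 4 were higher and 2 lower, and the share higher of 19.0% lay under the 24.3% of all genes. Without PAE replicate 1 the number higher was 5 and the median 0.89, and without untreated replicate 3 the number was 8. HSPA8, the constitutive HSP70, was measured at 295, 149.7 and 185 CPM and 3194, 1398 and 1465 CPM (3.27, 2.89 and 1.03, the last with an adjusted p of 0.077 in edgeR). HSP90AA1 was measured at 169.7, 154 and 148 CPM and 3493, 1128 and 1122 CPM (3.60, 2.21 and 0.74, adjusted p = 0.216 in edgeR for the last). The rises of HSPD1 (1.57) and HSPA4 (0.96) did not pass with that trend either. PAE replicate 1 held the highest value of the stress-inducible members. HSPA1B was measured at 16.2, 15.2 and 15.5 CPM and 223, 32.7 and 9.52 CPM, DNAJB1 at 489, 508 and 506 CPM and 3274, 767 and 216 CPM, and HSPA6 at 6.12, 5.79 and 6.61 CPM and 796, 72.8 and 1.31 CPM. For these 3 genes, chosen after their values were seen, PAE replicate 3 lay below all untreated libraries. Of 9185 protein-coding genes at 10 CPM or more with PAE, 49 differed by over 8-fold between PAE libraries, and 34 of those were highest in replicate 1.

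The aryl hydrocarbon receptor is a sensor of aromatic compounds, and 8 genes of its list were tested, AHR itself among them beside the targets. Of these 8, 5 were higher and 1 lower without allowance and 6 higher and 1 lower with the trend removed (75% higher, against 29.0% of all genes). With the coding and 3′ UTR trend 6 were higher and 2 lower. CYP1B1, a cytochrome P450 enzyme, was measured at 28.1, 9.54 and 19.6 CPM in untreated SKOV3 and 387, 585 and 523 CPM with PAE (4.71, 3.01 and 3.84). TIPARP, which feeds back on the receptor, was measured at 6.38, 3.75 and 4.41 CPM and 186, 105 and 104 CPM (4.76, 3.41 and 1.52). ALDH1A3, which makes retinoic acid, was measured at 5.5, 5.28 and 4.41 CPM and 32.1, 43 and 21.1 CPM (2.66, 3.50 and 1.75), and SERPINB2 at 0.532, 0.597 and 0.848 CPM and 19.5, 23.1 and 9.37 CPM (2.66). The groups did not overlap for any of the 4, as the rule for naming them required. NQO1, a reductase under the same receptor and NRF2, was the lower member with the trend removed (−0.29, not passing, −1.50 and −1.97). Without allowance the lower member was ALDH3A1, which was among the higher ones with either trend (−0.79, 1.43 and 1.89). AHR, the gene of the receptor, was higher without allowance and lower with the coding and 3′ UTR trend (2.77, −0.05 and −1.04). CYP1A1, the classical target, was measured at 4.52, 1.96 and 2.37 CPM and 5.29, 3.25 and 3.68 CPM, with overlap (1.33). NQO1, ALDH3A1, AHR and CYP1A1 were chosen after their values were seen.

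Of 29 NRF2 antioxidant targets, 13 were higher and 9 lower without allowance, 7 and 4 with the trend removed, and 5 and 6 with the coding and 3′ UTR trend. With the trend removed 24.1% were higher and 13.8% lower, under the 29.0% and 22.0% of all genes, and the median of 0.64 with the trend removed became 0.29 without PAE replicate 1. TXNRD1, the thioredoxin reductase, was measured at 91.8, 31.9 and 62.3 CPM and 1103, 847 and 745 CPM (3.86, 2.51 and 1.42). AKR1C2, an aldo-keto reductase with close paralogs, was measured at 3.1, 3.49 and 3.31 CPM and 168, 109 and 66.9 CPM (5.12, 2.44 and 2.73). Both were higher in each PAE library, while PRDX1 and UGDH passed with the merged-exon trend (2.09 and 1.99) and not with the coding one (0.22 and 0.49). Of 37 genes of ATF4 and the integrated stress response, 10 were higher and 4 lower with the trend removed, 5 and 5 with the coding and 3′ UTR trend, and 10 and 16 without allowance. The 27% higher with the trend removed lay near the 29.0% of all genes. The first counts became 4 and 4 without PAE replicate 1, 6 and 3 without untreated replicate 2 or replicate 3, and 8 and 2 without PAE replicate 3. SHMT2, of mitochondrial serine use, was measured at 1361, 1441 and 1289 CPM and 160.3, 138 and 199 CPM (−3.04, −1.51 and −1.61). PHGDH, the entry enzyme of serine synthesis, fell with the first trend (−2.29) and did not pass with the second (−0.54). SLC38A2, an amino acid transporter, was measured at 117, 32.3 and 68.7 CPM and 1419.5, 1493 and 1830.2 CPM (4.44, 1.36 and 0.91), and XPOT went from 1.34 to 0.37. Endoplasmic reticulum chaperones held 1 higher and 1 lower of 22 with the trend removed, against 11 and 6 without allowance. They held 0 and 2 without PAE replicate 1, and 0 and 1 without any 1 of the untreated libraries.

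Cytokines and feedback genes of NF-kB, a factor of inflammation, were more often higher, with 12 of 24 higher and 7 lower without allowance, 12 and 2 with the trend removed (50% higher, against 29.0% of all genes) and 14 and 4 with the coding and 3′ UTR trend. NFKBIZ was measured at 3.64, 2.3 and 4.07 CPM in untreated SKOV3 and 90, 137 and 41 CPM with PAE (4.74, 3.55 and 3.05). TNFAIP3, which shuts NF-kB signalling off, was measured at 20.9, 11 and 17.8 CPM and 81.2, 188 and 90.1 CPM (2.85, 2.57 and 1.58). The cytokine IL1A was measured at 1.33, 1.96 and 2.37 CPM and 130.0, 85.5 and 41.8 CPM (5.50, 3.06 and 3.04), and the chemokine CXCL2 at 3.9, 2.98 and 5.0 CPM and 18.7, 34.4 and 18.5 CPM (2.59, 3.0 and 3.73). The groups did not overlap for these 4 genes, as the rule for naming them required. Without PAE replicate 2 the list held 8 higher genes and a median of 0.47 in place of 0.92. Interferon-stimulated genes moved both ways, with 11 of 30 higher and 12 lower without allowance and 12 higher and 6 lower with the trend removed (40% and 20%, against 29.0% and 22.0% of all genes), and their median went from −0.29 to 0.39. IFIT1, an antiviral RNA-binding protein, was measured at 9.93, 7.07 and 9.41 CPM and 209.8, 268 and 226 CPM (4.74, 2.35 and 2.08), and DDX58, the RNA sensor RIG-I, at 4.97, 1.62 and 3.39 CPM and 95.8, 88.4 and 97.1 CPM (2.14 and 1.61). IFIT3 (2.10) and IFI44 (2.65) rose as well. OAS1, which makes the activator of RNase L (−0.91, −1.94 and −1.03), and the transcription factor IRF7 (−4.74, −1.92 and −1.98) fell, both chosen after their values were seen. Of 11 genes of MHC class I presentation, 3 were higher and 6 lower without allowance and 1 higher and 4 lower with the trend removed (9.09% and 36.4%, against 29.0% and 22.0% of all genes). With the coding and 3′ UTR trend 1 was higher and 7 lower (63.6% lower, against 22.7%). The median was −0.20 with the trend removed and −1.01 with the coding and 3′ UTR trend. With the trend removed, the number lower was 2 without untreated replicate 2, PAE replicate 1 or PAE replicate 2. The number higher was 0 without untreated replicate 2 or 3 and 2 without PAE replicate 3. No gene met the rule for named genes.

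Cell cycle genes were higher without allowance in larger numbers than with it. Of 36 mitosis genes, 27 were higher and 8 lower without allowance, 15 and 3 with the trend removed (41.7% higher, against 29.0% of all genes), and 7 and 5 with the coding and 3′ UTR trend (19.4% higher, under the 24.3% of all genes). Their median GC content was 44%, against 48.9% for all genes. NDC80, of the kinetochore, was measured at 4.61, 1.96 and 3.05 CPM in untreated SKOV3 and 46.3, 50.4 and 82.9 CPM with PAE (4.22, 1.51 and 1.63), and its partner NUF2 at 2.39, 0.426 and 1.44 CPM and 28.4, 28.2 and 51.3 CPM (4.66, 1.69 and 1.59). Both were higher in each PAE library, and so were the kinase TTK (1.69) and the spindle protein NUSAP1 (1.53). Of 35 DNA replication genes, 20 were higher and 9 lower without allowance, 17 and 2 with the trend removed (48.6% higher, against 29.0%) and 9 and 4 with the coding and 3′ UTR trend (25.7%, near the 24.3% of all genes). The number lower was 1 without any 1 library other than PAE replicate 3. MCM3, of the replicative helicase, was measured at 60.8, 43.2 and 48.2 CPM and 85.2, 108 and 164 CPM (1.23, 1.40 and 1.03), and MCM10 at 6.38, 2.64 and 4.07 CPM and 40.6, 44.3 and 46.7 CPM (3.33, 1.38 and 1.49). The sliding clamp PCNA (1.23) and RRM2, of ribonucleotide reductase (1.03), did not pass with the coding and 3′ UTR trend (−0.24 and 0.32).

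Of 38 DNA repair genes, 25 were higher and 6 lower without allowance, 16 and 7 with the trend removed (42.1% higher, against 29.0% of all genes), and 7 and 9 with the coding and 3′ UTR trend (18.4% higher and 23.7% lower, against 24.3% and 22.7%). BRCA1, of homologous recombination, was measured at 5.5, 1.19 and 3.31 CPM and 61.5, 53 and 72.3 CPM (4.22, 2.01 and 1.45). CHEK2 (1.26) and PALB2 (1.24) did not pass with the coding and 3′ UTR trend (−0.28 and 0.35). Of 17 growth arrest genes, 7 were higher and 4 lower without allowance and 10 higher and 3 lower with the trend removed (58.8% higher, against 29.0% of all genes). KLF6, a zinc finger factor, was measured at 7.27, 5.11 and 8.05 CPM and 60.3, 80.4 and 50.6 CPM (3.23, 2.17 and 2.79), the CDK inhibitor CDKN1B at 8.6, 6.14 and 8.31 CPM and 33.4, 35.5 and 30.9 CPM (2.11, 1.52 and 2.10), and KLF4 at 27.4, 22.7 and 30.3 CPM and 130.0, 50.7 and 31.5 CPM (1.40, 3.42 and 1.42). CDKN1A, the p53-induced CDK inhibitor, was measured at 2238, 2460.5 and 2274 CPM and 349.5, 226 and 132 CPM, far lower in each PAE library, with log2 fold changes of −3.30, −1.25 (adjusted p = 0.00424 in edgeR) and −0.57 (adjusted p = 0.149 in edgeR).

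Apoptosis genes moved both ways. Of 20 promoters of apoptosis, 7 were higher and 9 lower without allowance and 3 higher and 7 lower with the trend removed (15% and 35%, against 29.0% and 22.0% of all genes). With the coding and 3′ UTR trend 4 of 19 were higher and 5 lower (21.1% and 26.3%, near the 24.3% and 22.7% of all genes). Their median went from −0.20 with the trend removed to 0.11 with the coding and 3′ UTR trend. Of 9 inhibitors, 5 were higher and 2 lower without allowance and 4 higher and 3 lower with the trend removed (44.4% and 33.3%), and without untreated replicate 3 or PAE replicate 3 the number lower was 1. BAK1, which permeabilizes the outer mitochondrial membrane, was measured at 229.9, 281 and 220.3 CPM in untreated SKOV3 and 15.9, 24.2 and 15.2 CPM with PAE (−3.73, −1.31 and −1.27), BID, its activator, at 136, 174 and 151 CPM and 27.5, 27.6 and 29.7 CPM (−2.44, −1.65 and −1.90), and CASP9, the initiator caspase, at 47.3, 57.9 and 50.5 CPM and 8.54, 11.3 and 9.58 CPM (−2.40, −1.56 and −1.31). All 3 were lower in each PAE library, whereas the death receptor FAS was higher (7.45, 2.3 and 2.29 CPM and 46.5, 37.9 and 40.2 CPM) and passed with the first trend (1.43) but not with the second (0.49). MCL1, a BCL2 family inhibitor, was measured at 75.4, 52.2 and 64.5 CPM and 448, 425 and 299.6 CPM (2.61, 1.15 and 2.32). BIRC3, an inhibitor of apoptosis and NF-kB target, was measured at 2.57, 1.28 and 1.7 CPM and 64.1, 81.8 and 42.7 CPM (5.09, 1.81 and 1.68). BIRC5, or survivin, was lower, at 422, 488 and 451 CPM and 116, 123 and 137 CPM (−1.85, −1.72 and −0.76).

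Epithelial genes held 10 higher and 1 lower of 20 with the trend removed (50% higher, against 29.0% of all genes, with a median of 0.97) and 9 higher and 0 lower with the coding and 3′ UTR trend, against 7 and 5 without allowance. CDH1, or E-cadherin, was measured at 13.1, 3.32 and 6.44 CPM in untreated SKOV3 and 67.6, 73.7 and 20.2 CPM with PAE (2.82, 2.24 and 1.42), and CLDN1, of tight junctions, at 20.3, 13 and 23 CPM and 198, 201 and 271 CPM (3.57, 1.11 and 2.71). KRT8 was the lower member, at 3153, 3699 and 3081 CPM and 589, 709 and 357 CPM (−2.58, −1.29 and, not passing, −0.13). Of 27 mesenchymal and matrix genes, 11 were higher and 7 lower without allowance, 11 and 2 with the trend removed (40.7% higher, against 29.0% of all genes) and 5 and 5 with the coding and 3′ UTR trend (18.5% higher, against 24.3%). Without untreated replicate 2, 7 were higher, without PAE replicate 1, 7 were higher and 4 lower, and without untreated replicate 1 or PAE replicate 2 the number lower was 1. CCN2, a secreted matrix protein, was measured at 25.9, 13 and 20.4 CPM and 107, 66.8 and 26.4 CPM (2.48 and 1.84), and ZEB1 (1.08) did not pass with the coding and 3′ UTR trend (0.26). Of 7 drug efflux pumps, 2 were higher with the trend removed (28.6%, near the 29.0% of all genes) and 0 with the coding and 3′ UTR trend, against 4 without allowance. None was lower in these 3 fits. Without untreated replicate 2 or PAE replicate 1 the number higher with the trend removed was 1. Hypoxia genes held 5 higher and 2 lower of 15 without allowance and 4 and 1 with the trend removed (26.7% higher), with 2 and 2 without PAE replicate 1, 2 and 1 without untreated replicate 3, and 0 lower without untreated replicate 2 or PAE replicate 2. Genes of iron handling and ferroptosis held 8 and 6 of 14 without allowance and 4 and 3 with the trend removed (28.6% higher), both shares near the 29.0% of all genes. NCOA4, the receptor of ferritin breakdown, was measured at 25.5, 9.8 and 16.9 CPM and 183, 169.9 and 197 CPM (1.53 and 1.69), and ACSL4, which activates polyunsaturated fatty acids, went from 1.01 to 0.38, not passing. AIFM2 (−1.52 and −0.83) and LPCAT3 (−1.51 and −1.18) fell.

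**Figure D5:**
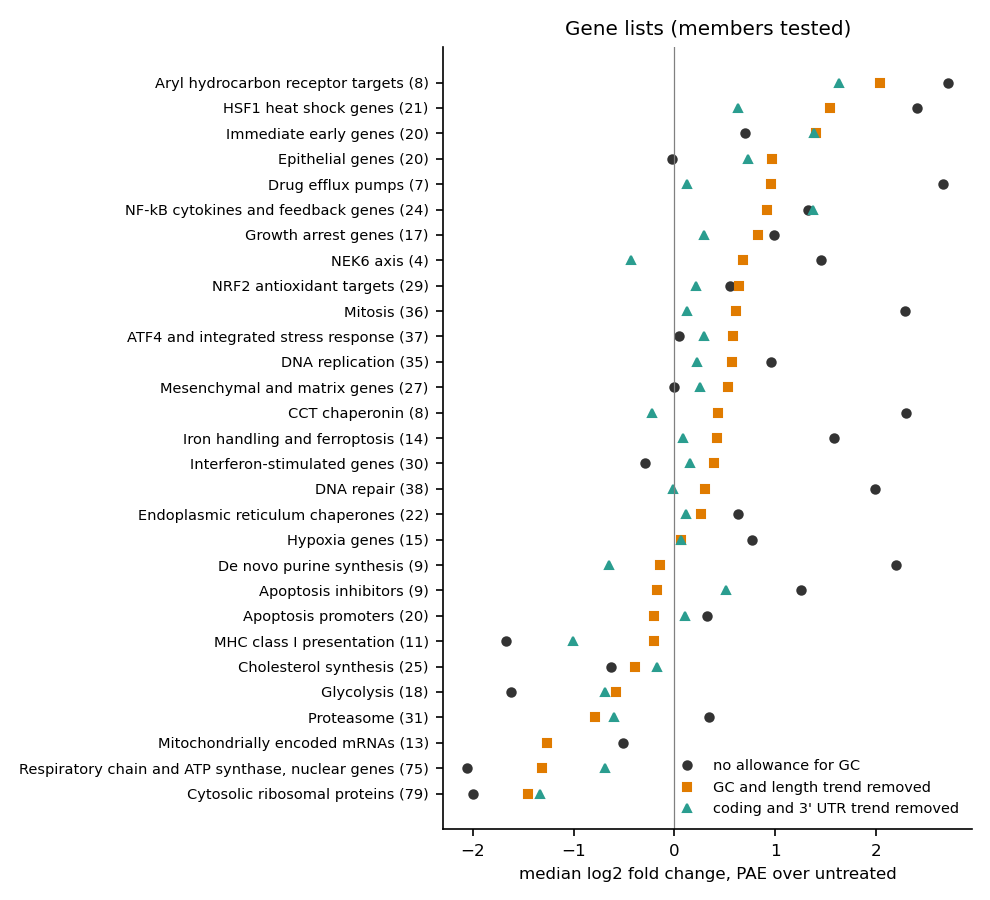
The plot gives the median log2 fold change of PAE over untreated SKOV3 (x axis) of the tested members of each gene list (y axis, number tested in brackets), without allowance for GC content (circles), with the GC and length trend removed (squares) and with the coding and 3′ UTR trend removed (triangles). The lists of ribosomal proteins and of the respiratory chain lie below 0 in each, and the drug efflux pumps move towards 0, from 2.67 to 0.12.

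Some genes passed in both fits with opposite signs. Of 1248 such genes, 685 were higher without allowance and lower with the trend removed, and 563 the reverse. Among the abundant protein-coding genes, ZNF280D (35.3% GC) was measured at 14, 20.5 and 17.7 CPM and 28.6, 22.2 and 30 CPM and went from 0.63 to −3.05. CBWD1 (35.3%), which has near-identical copies, went from 0.68 to −3.04, and MKKS (38.1%), a chaperonin-like protein, from 0.58 to −2.68. At the GC-rich end, NRARP (67.3%), a feedback inhibitor of Notch, was measured at 24, 13.8 and 26.5 CPM and 17.1, 10.5 and 5.05 CPM and went from −0.98 to 2.06. MRPL36 (60.9%), of the mitochondrial ribosome, went from −1.0 to 1.96, and the histone gene H2BC12 (61.2%) from −1.58 to 1.98. With the coding and 3′ UTR trend the values were −3.19 for ZNF280D, −2.15 for CBWD1, −3.11 for MKKS and 2.63 for NRARP, while MRPL36 (0.24) did not pass.

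The effect of PAE differed between SKOV3 and SKOV3/DDP for 6670 of 15683 genes with the trend removed (42.5%, interaction term of the same edgeR fit). Among the genes of the pathway the difference was not significant for NEK6, at 0.68 on the log2 scale for SKOV3 minus SKOV3/DDP (standard error 0.29, adjusted p = 0.0792 in edgeR), where the log2 fold changes were −1.0 in SKOV3 and −1.68 in SKOV3/DDP. PAICS was 1.72 in SKOV3 and −0.88 in SKOV3/DDP (adjusted p = 2.52e-06 for the difference, edgeR), and IMPDH2 −0.83 and −0.99 (adjusted p = 0.591, edgeR). EHF was higher with PAE in SKOV3 and had a value of −3.53 in SKOV3/DDP. The untreated SKOV3 libraries with the GC trend enter this difference, and genes named for their size in SKOV3 were chosen on values that enter it too.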

How the data were processed

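Poly(A)-selected RNA of 12 libraries, 3 in each of 4 groups, was sequenced after Trizol extraction and NEBNext Ultra preparation with random hexamers, per the labels. The authors deposited raw read counts per gene, and these counts were used as deposited. The submitters' processing notes name HISAT2 2.0.5, StringTie 1.3.3b, DESeq2 and edgeR. The counting program, annotation release and strand setting are not given in the sources used here, so antisense and overlapping genes cannot be told apart. The 869 loci without a name (at most 0.678% of the counts of a library) were left out.

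Groups were taken from the labels. Named genes were tested with edgeR's quasi-likelihood test (edgeR 4.0.16, R 4.3.3) in 1 fit of all 12 libraries with TMM scaling, filterByExpr and Benjamini-Hochberg adjustment at 0.05. GC content and length of merged exons came from GENCODE 29 (GRCh38), matched by Gene ID for 91.5% of the tested genes. In the second fit, splines of GC content and log2 length (5 degrees of freedom each), fitted per library on genes averaging a log2 CPM of 2 or more, were passed as offsets, and a further fit used coding sequence and 3′ UTR. CPM in the text carry no allowance for GC content. limma 3.58.1 and DESeq2 1.42.0 served as alternatives, and the models were run on simulated data. Those counts were drawn with the trend fitted to these libraries, so they cannot show whether its removal suits the real data. Intervals of count ratios are exact at 95% and cover counting error only.

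The members and gene lists were chosen with earlier results of these data known. Genes were named if protein-coding, past the threshold with 1 sign in both fits and without each SKOV3 library in turn, at 10 CPM or more in the higher group, and without overlap between groups. The 10 of each sign with the largest change and up to 4 of each list were named. The genes of the NEK6 pathway and purine synthesis were named whatever their values, as were 3 genes of each sign that passed with opposite signs, and the proteasome and CCT members of lowest and highest GC content. Genes in the text outside this rule are said to have been chosen after their values were seen.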

Additional observations from a re-analysis of the deposited data

Results flagged for a closer look

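The effect of PAE differed between SKOV3 and SKOV3/DDP, by the interaction term with the trend removed, for 27 of the genes named by size or for the pathway. Values are log2 differences, SKOV3 minus SKOV3/DDP. The untreated SKOV3 libraries with the GC trend enter each of them, and the genes named by size were chosen on the SKOV3 values that make up part of the difference, so the differences are no independent support. Among the genes of large rise they were 6.03 for EGR1, 9.52 for EHF, 5.23 for CCDC150, 7.44 for IGFBP5, 4.23 for EFCAB8, 4.97 for AOX1, 4.48 for ULBP3, 3.93 for GOLGA8B and 4.51 for ID2. CCL4L2 had no usable difference, since it had no count in any SKOV3/DDP library. Among the genes of large fall they were −8.54 for NEDD8, −6.05 for NOTCH2NLA, −5.60 for DMAC1, −5.66 for TMED3, −5.38 for ATP5MC3, −5.40 for FAM229B, −5.60 for NDUFB2, −4.95 for COX7A2, −4.82 for SLCO5A1 and −5.24 for ATP5MG.

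Of the genes of the NEK6 pathway and of purine synthesis, MYC differed by 1.73, FOXO3 by 1.23, GART by 0.86, PFAS by 1.28, PAICS by 2.60, ADSL by −1.22, ATIC by 0.86 and ADSS2 by 0.68. GART, PFAS, ATIC and ADSS2 did not pass in SKOV3 itself with the trend removed.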

How the results depend on the processing

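The number of genes past the threshold stayed within 1.5 times its value, in total and in each direction, under each alternative run: 9897 to 13633 without allowance for GC content and 6245 to 8188 with the trend removed. Leaving out 1 library gave 12372 to 12778 genes without allowance (7032 to 7233 higher, 5291 to 5545 lower) and 6768 to 7614 with the trend removed (3691 to 4256 higher, 3029 to 3359 lower). The libraries of the 2 groups share only a replicate number (correlations of deviations between same-numbered libraries 0.0024, 0.0166 and −0.0532), and the replicate block gave 12701 genes without allowance and 7535 with the trend removed, with no named call changed. The difference between the lines covered 5589 genes with the coding and 3′ UTR trend.

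Named genes that took the other sign without allowance were FBXW7 (2.63), PPAT (3.06), GART (2.20), PFAS (−1.55), NRARP (−0.98), H2BC12 (−1.58), MRPL36 (−1.0), ZNF280D (0.63), CBWD1 (0.68), MKKS (0.58), PSMD14 (2.84), PSMC3 (−1.98) and, not past the threshold in either fit, ATIC (0.47). With the coding and 3′ UTR trend, chosen after seeing the data, they were PCNA (−0.24), CHEK2 (−0.28), CCT4 (−0.22), PFAS (−0.83), GMPS (−0.65), PSMD14 (0.50) and, not past the threshold in either fit, ADSS2 (−0.04), and 17 others did not pass. Quantile normalization within GC bins turned MT-CO2 (COX2 in the files, 0.25), and MT-CYB (−0.73) did not pass there. ATIC passed in DESeq2 (−0.55). PCNA (0.55) did not pass with GC content alone. The sign of the list medians was kept in 22 of 29 lists without allowance and in 23 of 28 with the coding and 3′ UTR trend. The cause of these moves was not tested. At 14610008 to 18263479 counts a library, 19305 named genes had no count in the 6 libraries and could not be tested.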

Other observations

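Small nucleolar RNAs, which guide the modification of ribosomal RNA and are cut from introns of host genes, were more often higher with PAE. Of 80 tested with the trend removed, 46 were higher and 1 lower (57.5% and 1.25%, against 29.0% and 22.0% of all genes), with a median log2 fold change of 3.20, and 50 of 96 were higher and 6 lower without allowance. They held 0.00268% to 0.00459% of all counts in untreated and 0.0103% to 0.0127% in PAE libraries, which were poly(A)-selected. Of 345 transcribed pseudogenes, 138 were higher and 43 lower (40% and 12.5%). Long noncoding RNAs took 0.649% to 0.764% of the counts in untreated and 1.11% to 1.18% in PAE libraries, with 266 of 1134 higher and 209 lower (23.5% and 18.4%, under the shares of all genes).

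A few abundant genes varied widely within a group. Of 6277 protein-coding genes at 10 CPM or more in both groups, 14 varied by over 4-fold within each group, and 3 of them are given here, chosen after their values were seen. LDHA, a lactate dehydrogenase subunit, was measured at 5.32, 82.1 and 79.8 CPM in untreated SKOV3 and 322, 10.7 and 78.8 CPM with PAE. RPS25, a ribosomal protein, was measured at 23, 40.1 and 7.80 CPM and 165, 2.90 and 2.74 CPM. ECH1, a mitochondrial enzyme, was measured at 4.88, 211 and 282 CPM and 50.4, 2.39 and 1.84 CPM. Replicates otherwise correlated at 0.943 or more over genes, and the cause of the spread was not tested.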
